A study of Mus musculus with 5 samples.

Results

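Wild-type regulatory T (Treg) cells from mice at 6 weeks of age were compared with wild-type Treg cells from mice at 21 days, by RNA sequencing of 1 library per age. The genes compared were the entries with an FPKM (fragments counted on a transcript relative to its length and to all fragments mapped in that library) of 1 or more in either library. There were 11857 such entries of 38130 in each file, and 10224 of them are protein coding. Of the 11857, 10377 reached this level in both libraries, 1048 in the library at 6 weeks alone and 432 in the library at 21 days alone. At the edge of the rule, Paqr9 (FPKM 0 at 21 days and 1.0004 at 6 weeks) was taken and Arhgef10l (0.0406 and 0.999) was not, and 124 protein-coding entries had a higher FPKM from 0.9 to under 1.

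Both wild-type (WT) groups were CD4+YFP+ cells of C57BL/6 mice with the Foxp3-Cre-YFP reporter, in which the promoter of Foxp3 drives Cre and a yellow fluorescent protein. The series has 3 further libraries, all carrying the same Foxp3-driven Cre. One is from mice of 21 days with both Malt1 alleles floxed (Malt1 fl/fl, called KO), and 2 are from mice of 6 weeks with a floxed allele and a C472A allele (Malt1 fl/C472A, called KI). The labels do not say whether a library came from 1 animal or from a pool, from which organ the cells were sorted, or whether the KI libraries came from separate animals.

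Treg cells are CD4 T cells that hold back immune responses under the control of the transcription factor Foxp3. They arise in the thymus around birth and spread through lymphoid and other tissues while a young mouse is weaned and matures. With stimulation through the T cell receptor they take up an effector state, marked by higher Ctla4, Icos and Il10, and switch on immediate early genes such as the Nr4a family within a short time.

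Values are FPKM divided by 1 factor per library (scaled FPKM), and each is given with the lower and upper bound that the authors' files hold for it, scaled alike. A difference is log2(scaled FPKM + 1) at 6 weeks minus the same at 21 days. A difference of 1 is 2-fold for a gene well above 1 and more than 2-fold for a low gene. Where 2-fold is named below, a difference of 1 on this scale is meant. A gene was called when its difference was past 1 in size and the bounds of both libraries did not overlap. The bounds cover error within a library only. With 1 library per age there is no replicate check. No p-value is given for a gene, since a limma fit could take its spread from the KI pair alone, and a difference between these libraries cannot be told apart from one between animals, sorts or library preparations.

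By this rule 338 of the 11857 genes were called higher at 6 weeks (2.85%) and 548 lower (4.62%), or 886 in all (7.47%). Every list count below is to be read against these shares, also where they are not repeated. With FPKM as deposited, which moves differences up by as much as 0.39 and by less for low genes, the split was 943 higher and 308 lower. Among protein-coding genes 243 were called higher (2.38%) and 290 lower (2.84%). Of the 338, 154 reached FPKM 1 at 6 weeks alone, and of the 548, 146 did so at 21 days alone, and these had to differ to enter. The same rule called 623 genes (5.25%) between the KI libraries, which share a group. The libraries differed in depth, estimated from the bounds at 30.4 M fragments for WT at 21 days and 7.33 M for WT at 6 weeks, beside 8.29 M for KO and 26.2 and 26.1 M for KI. On the log scale over the members, WT at 6 weeks had a Pearson r of 0.91 with WT at 21 days and of 0.954 with KO, and WT at 21 days had r of 0.964 and 0.952 with the KI libraries. WT at 6 weeks thus lay nearest to KO at 21 days, and WT at 21 days nearest to KI at 6 weeks, across the labelled ages and genotypes, and depth split the libraries in the same way. Age cannot be told apart from this division in the WT pair, and no value here checks the age label of a library, so every difference below is one between the libraries labelled 6 weeks and 21 days.

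**Figure D1:**
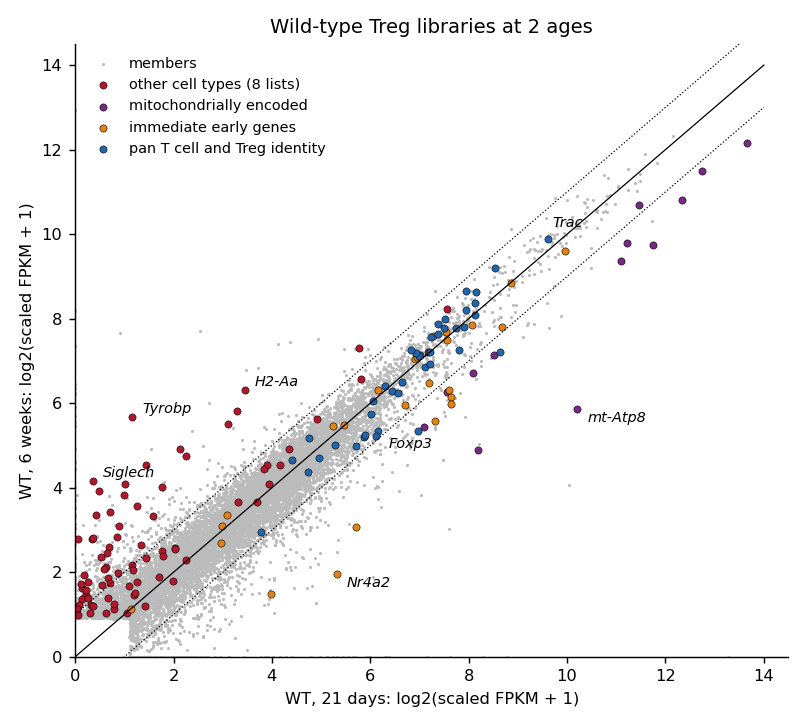
Each point is 1 gene, with log2(scaled FPKM + 1) in WT at 21 days on the x axis and in WT at 6 weeks on the y axis. The solid line marks equal values and the dotted lines 2-fold. Markers of other cell types lie mostly above the solid line (Tyrobp at 1.24 and 50.1 scaled FPKM). These markers are drawn only at FPKM 1 or more in either library, which many reached at 6 weeks alone. Nothing is therefore read from their place. The mitochondrially encoded genes lie below the solid line, and most T cell genes lie between the dotted lines.

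The genes that define T cells mostly stayed within 2-fold between the ages, as most of all 11857 genes did. Of 24 pan T cell genes, 0 were called higher and 1 lower (4.17%), beside 2.85% and 4.62% over all genes. The median difference was 0.18 beside 0.03 over all genes (0.57 beside 0.37, and 2 called higher, with FPKM as deposited). Trac, the constant region of the T cell receptor alpha chain, had 777 scaled FPKM at 21 days (bounds 752 and 802) and 941 at 6 weeks (902 and 980). Lck, the kinase that starts T cell receptor signalling, had 246 (236 and 256) and 400 (382 and 418), a difference of 0.70 and the largest upward one of the list. Trbc2 had 371 and 585 and Lat, the adaptor downstream of Lck, 166 and 233, so the bounds were apart for these genes too while the differences of 0.65 and 0.48 stayed below 2-fold. The 1 gene called was Cd28, the costimulatory receptor, at 124 (119 and 130) and 39.6 (36.9 and 42.3). Cd28 had 27.2 in KO and 132 and 88.2 in KI, so WT at 6 weeks stood with the KO library on the low side.

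Of 17 genes of Treg identity 1 was called lower at 6 weeks (5.88%, beside 4.62% over all genes) and 0 higher. By sign, 14 of 17 had a difference below 0 and the median was -0.36, but 0.01 with FPKM as deposited, where the median of all genes is 0.37. Foxp3 itself had 70.7 scaled FPKM at 21 days (67.5 and 73.8) and 39.5 at 6 weeks (36.8 and 42.2), a difference of -0.82. It had 30.5 in KO and 70.1 and 73.6 in KI, so its order over the 5 libraries follows neither age nor Malt1 genotype alone. Ctla4, an inhibitory receptor that strips costimulatory ligands from antigen-presenting cells, was the member called lower, at 396 (379 and 412) and 148 (139 and 156). It had 118 in KO and 412 and 246 in KI.

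The other transcription factors and receptors of this list were not called. Ikzf2, which encodes Helios, had 68.0 (67.0 and 69.1) and 36.3 (34.9 and 37.6), and Ikzf4, which encodes Eos, 25.7 and 19.8. The interleukin 2 receptor chains had 93.4 and 74.2 for Il2ra and 224 and 151 for Il2rb. Lrrc32, which holds latent TGF-beta on the cell surface, had 57.2 and 35.6, with 40.1 in KO and 136 and 115 in KI. Nrp1, a semaphorin receptor, had 51.6 and 30.9, and the ectonucleotidases had 58.4 and 37.3 for Nt5e and 12.8 and 6.68 for Entpd1, whose bounds overlapped. Closer to equality lay Folr4 (also named Izumo1r) at 239 and 223, Tnfrsf18 at 99.5 and 90.02, Tnfrsf4 at 147 and 121 and Itgae at 30.1 and 24.9. Above 0 lay Gpr83 at 26.0 and 35.3, Capg at 113 and 152 and Socs2 at 20.3 and 24.3, each by at most 0.42 on the log2 scale.

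Of 23 genes of the effector Treg state, 0 were called higher and 4 lower, beside 4.62% called lower over all genes, with a median of -0.35 (0.01 with FPKM as deposited). Areg, an epidermal growth factor receptor ligand tied to tissue repair, had 14.24 scaled FPKM at 21 days (13.0 and 15.5) and 1.37 at 6 weeks (0.683 and 2.05). It had 3.46 in KO and 40.4 and 9.04 in KI, so WT at 6 weeks was the lowest of the 5. Il10, the anti-inflammatory cytokine, had 32.8 (30.7 and 34.9) and 8.11 (6.32 and 9.90), and Rora, a nuclear receptor, 17.8 and 5.25. Il10 had 17.5 in KO and 13.3 and 9.89 in KI, which puts WT at 21 days above the other 4. Icos, the member with the highest level, had 105 and 82.4.

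Ebi3, a subunit of interleukin 27 and interleukin 35, was the only protein-coding gene called in the WT pair that was also past 2-fold in the same direction in both KI libraries at 6 weeks against KO at 21 days. It had 19.4 scaled FPKM in WT at 21 days (17.4 and 21.5) and 14.8 in KO at 21 days, against 8.73 in WT at 6 weeks (6.65 and 10.8) and 4.75 and 4.18 in KI at 6 weeks. All 3 libraries at 6 weeks were below both libraries at 21 days. Its difference of -1.07 in the WT pair became -0.71 with FPKM as deposited and then missed the rule.

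Among genes of resting T cells, 1 of 14 was called higher and 2 lower, beside 2.85% and 4.62% over all genes. The median was -0.22 (0.17 with FPKM as deposited). Igfbp4, an insulin-like growth factor binding protein found in naive T cells, had 43.3 scaled FPKM at 21 days (40.7 and 46.0) and 154 at 6 weeks (145 and 164), and 96.2, 105 and 65.8 in KO and KI. It was the T cell gene with the largest upward difference of these lists (1.81), and WT at 21 days was the lowest library. Bach2, a repressor that holds T cells in a resting state, had 19.7 and 8.79, and Ccr7, the receptor for entry into lymph nodes, had 171 and 81.8. Tcf7 had 200.2 and 219, so genes of the same resting program lay on both sides of equality. Bach2 and Ccr7 missed the rule with FPKM as deposited, at -0.72 and -0.66.

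Of 17 chemokine receptor and homing genes, 0 were called higher and 2 lower, beside 2.85% and 4.62% over all genes. The median was -0.16 (0.19 with FPKM as deposited). Cxcr4, the receptor for CXCL12, had 132 (126 and 138) and 41.7 (37.5 and 45.9), and Itga4, an integrin chain for homing to gut and inflamed tissue, had 71.9 and 28.6. Itgb7, its partner chain, had 176 and 245, and S1pr4, a sphingosine phosphate receptor, 31.7 and 53.4. Itga4 had 10.9 in KO and 44.0 and 80.3 in KI, and missed the rule with FPKM as deposited (-0.92). Genes of thymocytes and recent thymic emigrants had 1 of 13 called higher and 0 lower, beside the same 2.85% and 4.62%. That gene was Cd24a, a surface protein that falls as thymocytes mature, at 2.38 (1.93 and 2.83) and 7.22 (5.81 and 8.63), with 2.86 in KO and 0.901 and 0.882 in KI. Dntt, the enzyme that adds bases to receptor junctions in the thymus, had 0.151 and 0.960, a difference of 0.77.

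**Figure D2:**
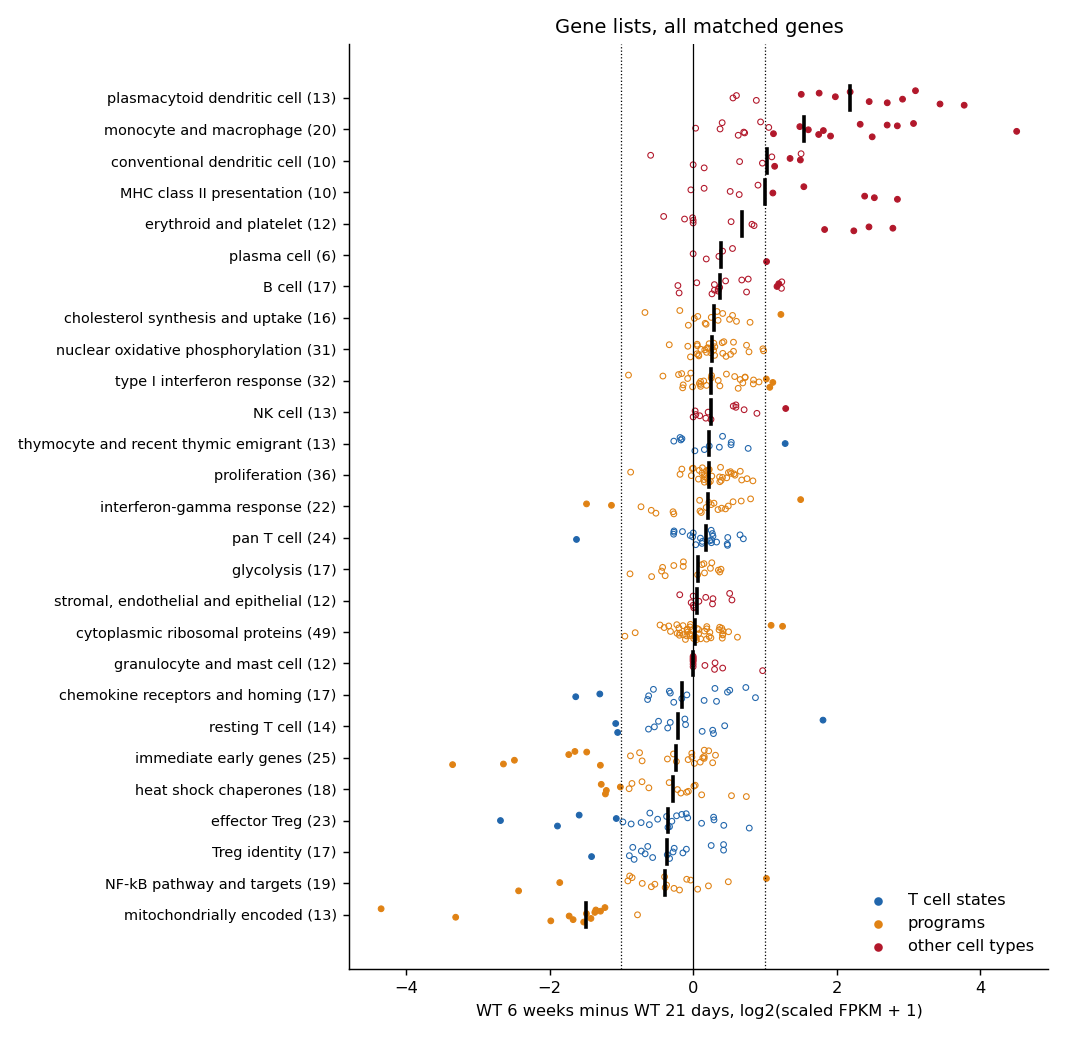
Each point is 1 gene of the list named on the y axis (number of matched genes in brackets), placed on the x axis by its difference between WT at 6 weeks and WT at 21 days on the log2(scaled FPKM + 1) scale. Filled points are called and black bars are list medians. The plasmacytoid dendritic cell list lies farthest to the right (median 2.19) and the mitochondrially encoded genes farthest to the left (median -1.49).

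Markers of plasmacytoid dendritic cells, which make type I interferon, were the list with the largest upward median in the WT library at 6 weeks. Of 13 genes, 10 were called higher and 0 lower, beside 2.85% over all genes, with a median of 2.19. Only 3 reached FPKM 1 at both ages. The others that entered did so through the library at 6 weeks, where they are high, so nothing is read from the count. Siglech, a surface lectin of these cells, had 0.294 scaled FPKM at 21 days (0.0421 and 0.545) and 16.8 at 6 weeks (14.8 and 18.8). Pld4, a nuclease of the endosome, had 0.392 and 14.1, Ly6d 1.71 and 22.3, and Rnase6 0.340 and 9.15. Spib, a transcription factor of these cells and of B cells, had 0.862 and 7.50, Klk1 0.0485 and 5.85, Cox6a2 0.262 and 5.92, and Lair1, an inhibitory collagen receptor, 0.807 and 6.14. The last called members were Cd300c at 0.134 and 2.84 and 2210020M01Rik (now Smim5) at 0.542 and 3.39, and both of them and Cox6a2 were no longer called with the bounds doubled.

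The members not called were Tcf4, the factor that specifies the lineage, at 1.73 and 4.03 with overlapping bounds, Cadm1 at 0.0473 and 0.539, and Pacsin1 at 13.3 and 20.7. All 13 genes had their highest value of the 5 libraries in WT at 6 weeks. The summed level of the list was 119 scaled FPKM there, and 20.4 in WT at 21 days, 26.9 in KO, and 19.1 and 18.0 in KI, of which Pacsin1 alone made 12.3 to 15.4. Siglech was listed at 0 in KI replicate 1 and had 0.149 in replicate 2, and KO had 1.24. The age-matched KI libraries thus did not carry these genes at the level of WT at 6 weeks. In such bulk samples, more cells of a type and more RNA per cell cannot be told apart.

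Of 20 genes of monocytes and macrophages 12 were called higher at 6 weeks and 0 lower, beside 2.85% called higher over all genes (median 1.55). Of the 18 that entered, 7 reached FPKM 1 at both ages, and the others entered through the library at 6 weeks, where they are high. Nothing is therefore read from the count of calls. Tyrobp, the adaptor of many activating receptors of myeloid and NK cells, had 1.24 (0.521 and 1.96) and 50.1 (42.4 and 57.8), the largest upward difference of any protein-coding gene called (4.51). Mpeg1, a pore-forming protein of phagocytes, had 1.01 and 15.9, and the complement chains had 0.987 and 13.3 for C1qa and 0.638 and 9.69 for C1qb. Lyz2, the lysozyme of myeloid cells, had 3.77 and 25.9, but 14.98 in KI replicate 1, and C1qa had 4.64 there. The highest-level member, Ctss, a cathepsin that T cells express as well, had 143 and 147. The summed level of the list, Ctss included, was 204 and 375 in the WT libraries and 169 to 234 in the others, and 18 of 20 genes were highest in WT at 6 weeks.

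Further genes with large differences are known from myeloid cells. Apoe, the lipid carrier made by macrophages, had 8.29 and 41.4, and Alox5ap, which serves leukotriene synthesis, 0.123 and 7.74. Chosen after their values were seen, Fcna, a ficolin, had 0.408 and 8.42, Vcam1 1.22 and 7.51, Cd5l, a protein secreted by tissue macrophages, 0.173 and 3.54, and Cd209d 0.140 and 3.69. Fcna had at most 0.681, Cd5l at most 0.504, Cd209d at most 0.441 and Alox5ap at most 1.74 in the other libraries. WT at 6 weeks thus stood alone for these genes. Apoe had 23.5 and Vcam1 3.58 in KI replicate 1, so that library carried both as well, below WT at 6 weeks. Apoe also had 14.8 in KO.

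Antigen presentation on MHC class II followed, with 5 of 10 genes called higher and 0 lower (median 1.01), beside 2.85% and 4.62% over all genes. H2-Aa, a class II alpha chain, had 9.96 (8.68 and 11.2) and 78.0 (71.3 and 84.6), H2-Ab1 8.83 and 55.7, and H2-Eb1 7.64 and 44.3. Cd74, the invariant chain, had 53.7 (50.4 and 56.9) and 158 (149 and 168), with 110.1 in KO and 92.1 and 71.2 in KI. H2-Aa had 25.9 in KO and 9.91 and 2.55 in KI, so WT at 6 weeks was the highest, KO came next, and the other 3 lay lower. Of 10 markers of conventional dendritic cells 3 were called higher, each of them low, and 0 of the 6 that entered reached FPKM 1 at both ages, so the calls had to differ to enter and nothing is read from their count. These were Itgax, which encodes CD11c, at 0.0978 and 2.095, Cd209a at 0.166 and 1.98 and Flt3 at 0.0616 and 1.33.

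Most B cell genes apart from Ighm and Igkc were low at both ages. Of 17 genes 2 were called higher and 0 lower, beside 2.85% and 4.62% over all genes. The median was 0.37 (5 higher and 0.65 with FPKM as deposited). Ms4a1 (CD20) had 2.996 and 2.49, Cd79a 2.39 and 4.68, Cd22 1.34 and 1.87, and Pax5 0.721 and 1.19 with wide bounds. The genes called were Blnk, an adaptor of the B cell receptor, at 0.453 and 2.27, and Fcrla at 0.583 and 2.62, and neither was called with the bounds doubled. Both were below FPKM 1 at 21 days, so they had to differ to enter. The remaining genes had Cd79b at 8.93 and 11.6, Fcer2a 1.67 and 1.30, Bank1 0.726 and 1.36, Pou2af1 3.75 and 3.92, Vpreb3 0.103 and 1.60, Ebf1 0.171 and 1.75, Blk 0.350 and 0.745, and Cr2 0.0535 and 0.294. Immunoglobulin constant regions had 187 and 299 for Ighm and 55.2 and 94.6 for Igkc, which had 399 in KO. Of 6 plasma cell genes 1 was called higher and 0 lower, beside the same 2.85% and 4.62%. It was Igj, the chain that joins secreted antibodies, at 1.22 and 3.52, with 5.87 in KO. Immunoglobulin and receptor variable segments share sequence, so their entries are uncertain.

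Red cell genes were present at 6 weeks too. Of 12 erythroid and platelet genes 4 were called higher, all globins, beside 2.85% over all genes. Of the 7 that entered, 3 reached FPKM 1 at both ages. Hbb-b2 and Hba-a2 were below FPKM 1 at 21 days, so they had to differ to enter. Hbb-b1, a beta globin, had 3.37 scaled FPKM at 21 days (2.31 and 4.42) and 29.1 at 6 weeks (23.2 and 35.1), and Hba-a1, an alpha globin, 2.42 and 15.1. Hbb-b1 had 20.7 in KI replicate 1, 2.50 in replicate 2 and 1.63 in KO. Globin genes are near-identical copies, so the split between Hbb-b1 and Hbb-b2 or Hba-a1 and Hba-a2 is uncertain. Of 13 NK cell genes 1 was called higher and 0 lower, beside 2.85% and 4.62% over all genes. It was Gzma, a granzyme, at 1.54 and 5.23 (14.9 in KO), and Nkg7 had 19.4 and 29.1. The granulocyte and stromal lists had 0 genes called, and their highest members were S100a8 at 0.443 and 1.83 and Epcam at 4.12 and 4.79. The part of these other cell types in the higher calls was not tested, and the values above are what the files give on it.

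**Figure D3:**
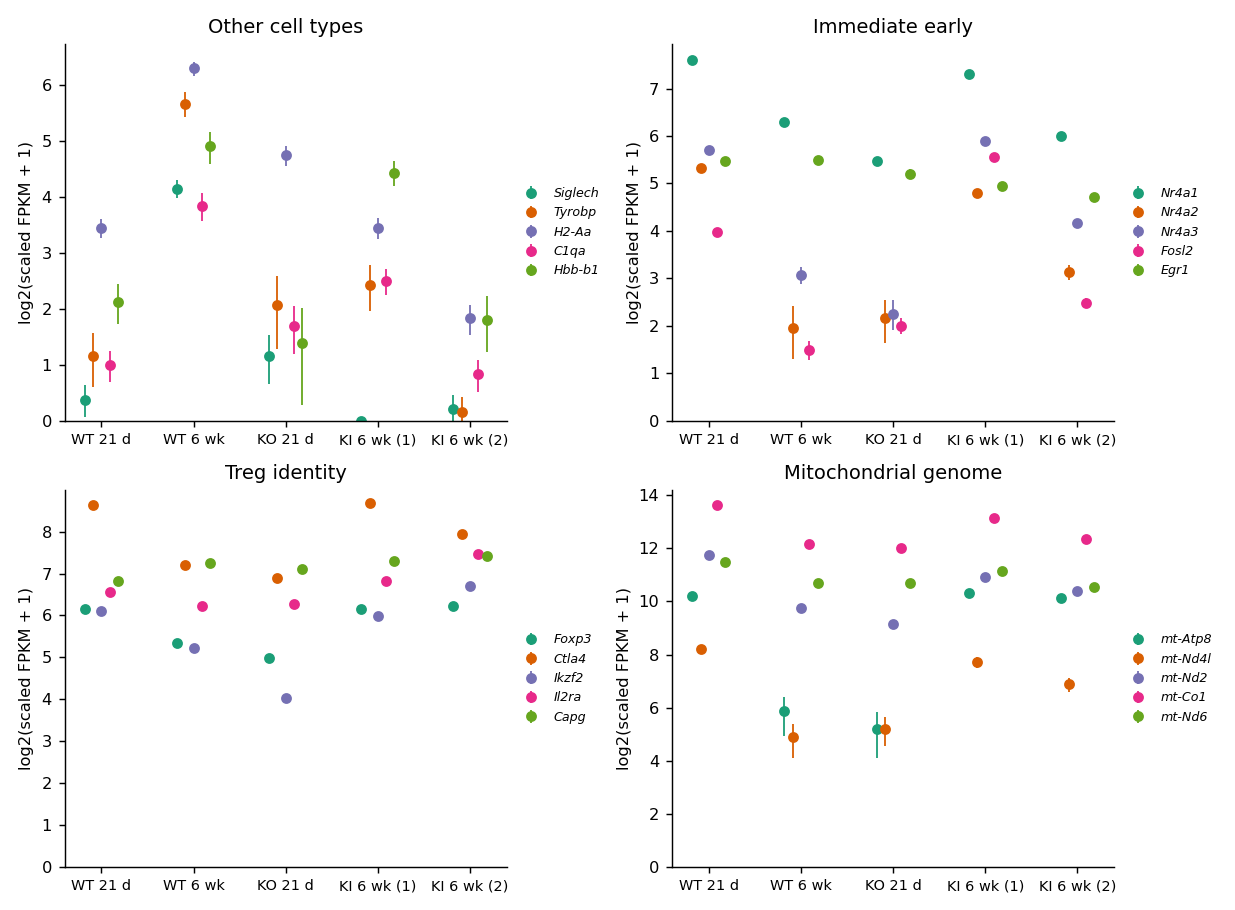
Panels show log2(scaled FPKM + 1) of 5 genes each in each library, the WT pair first, then KO and the KI replicates. Points are values and bars run from the lower to the upper bound. Siglech and Tyrobp are high in WT at 6 weeks alone, while mt-Atp8 is low in WT at 6 weeks and KO and higher in WT at 21 days and KI. Nr4a2, Nr4a3 and Fosl2 are low in WT at 6 weeks and KO and high in WT at 21 days and KI replicate 1. KI replicate 2 lies between for these genes (Fosl2 at 4.61, beside 3.01 in KO).

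Type I interferon responses are set off through a receptor whose signal binds promoters at the interferon-stimulated response element, and this list leaned upward. Of 32 genes 3 were called higher and 0 lower, beside 2.85% and 4.62% over all genes. The median was 0.25 (8 higher and 0.58 with FPKM as deposited), and 21 of 32 were highest in WT at 6 weeks. Bst2, a surface protein that tethers viruses and that plasmacytoid dendritic cells carry, had 31.9 (29.1 and 34.7) and 65.8 (58.9 and 72.6). Ifit3, an RNA-binding effector, had 4.90 (4.32 and 5.49) and 11.4 (9.80 and 13.0), and Oasl2 2.32 and 6.18. With a pseudocount of 5 these differences were 0.94, 0.73 and 0.61 and none was called. Bst2 had 18.4 to 32.7 and Ifit3 1.89 to 3.99 in the KO and KI libraries, all below WT at 6 weeks. Irf7, the factor that amplifies the response, had 25.6 and 49.3 and just missed 2-fold, while the highest member, Ifi27l2a, had 601 and 570.1.

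The core of that element, read as GAAA, any 2 bases and GAAA on either strand, was found in 14 of 28 RefSeq promoters of this list (50%), against 3.44% of all 32851 promoters of the same 300-base window in the table. Of the called genes it was found in Bst2 and Ifit3, whose promoter stretches around it are given as examples. Capitals mark the core, which occurs in overlapping copies in Bst2 and in separate copies on the other strand in Ifit3, and the stretches are in build GRCm38.p6.
Bst2, chr8:71537562-71537627, minus strand: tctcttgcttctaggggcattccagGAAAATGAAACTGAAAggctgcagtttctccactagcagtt
Ifit3, chr19:34583348-34583441, plus strand: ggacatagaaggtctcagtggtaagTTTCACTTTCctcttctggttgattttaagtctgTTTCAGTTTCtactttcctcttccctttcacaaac
The same core stood in Ddx60 and Ifih1, with differences of -0.90 and -0.42, so a match did not go with a higher value at 6 weeks in every gene.

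The response to interferon-gamma had genes on both sides. Of 22 genes 1 was called higher and 2 lower, beside 2.85% and 4.62% over all genes. The median was 0.20 (3 higher, 1 lower and 0.52 with FPKM as deposited). Tgtp1, a GTPase of host defence, had 9.62 and 29.0, with 54.7 in KO, and its near-identical neighbour Tgtp2 had 22.4 and 39.8, so the split between them is uncertain. Cxcl10, a chemokine for CXCR3, had 21.4 (19.0 and 23.7) and 6.99 (4.53 and 9.44), and Cd274, which encodes PD-L1, had 26.3 and 11.4 and missed the rule with FPKM as deposited (-0.77). Cxcl10 had 7.81 in KO and 44.5 and 20.9 in KI.

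Immediate early genes, which are switched on by receptor signals before new protein is made, included some of the largest downward differences. Of 25 genes 7 were called lower and 0 higher, beside 4.62% over all genes, with a median of -0.23 (0.16 with FPKM as deposited), so most of the list stayed within 2-fold. Nr4a2 had 38.8 (36.6 and 41.0) and 2.89 (1.47 and 4.31), Nr4a3 51.5 (48.9 and 54.2) and 7.39 (6.32 and 8.47), and Fosl2, an AP-1 subunit, 14.8 (14.19 and 15.4) and 1.81 (1.42 and 2.21). Dusp5, a phosphatase of ERK, had 157 and 46.6. Junb, the member with the highest level, had 1000.2 and 779.8 and was not called.

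These genes were also low in the other library at low depth and differed within the KI pair. Nr4a2 had 3.47 in KO and 26.9 and 7.77 in KI, Nr4a3 had 3.78, 58.8 and 16.8, and Fosl2 had 3.01, 46.4 and 4.61. WT at 21 days and KI replicate 1 were thus the high libraries, KI replicate 2 was between, and WT at 6 weeks and KO were low. The remaining calls of the list were Nr4a1 (192 and 77.9), Cd69 (198 and 70.1) and Klf6 (198 and 62.4), given here after their values were seen.

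Further genes called lower, taken by size and not as a list, had the following values. Bhlhe40, a transcription factor of activated T cells, had 177 and 24.3, with 80.9 in KO and 446 and 102 in KI. Dusp4, a phosphatase of MAP kinases, had 94.6 and 14.1, Maff, a small Maf factor, 29.5 and 3.56, and Zbtb10 13.3 and 1.35. Named after their values were seen, Per1, a clock gene, had 69.9 and 15.3, Sik1, a kinase induced by cAMP, 86.4 and 19.6, Tgif1 107 and 22.2, Nfil3 34.3 and 7.73 and Pim1 262 and 128. Sik1 had 15.6 in KO and 92.1 and 16.6 in KI, so WT at 21 days and KI replicate 1 were the high libraries, while Pydc4, which was lower at 25.4 and 2.08, had 1.92 in KO and 8.02 and 29.8 in KI.

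The NF-kB list had 1 of 19 called higher and 2 lower, beside 2.85% and 4.62% over all genes. The median was -0.39 (-0.01 with FPKM as deposited). Rel, the c-Rel subunit needed for Treg development, had 46.5 (45.0 and 48.0) and 7.79 (6.66 and 8.92), and Tnfaip3, the inhibitor A20, had 795 (772 and 817) and 218 (210 and 226). Rel had 4.64 in KO and 40.5 and 16.2 in KI, and Tnfaip3 had 190 in KO and 864 and 228 in KI. Tnf was the gene called higher, at 8.54 and 18.4. Malt1 itself had 27.0 and 15.2 in the WT libraries, 17.6 in KO and 55.9 and 37.8 in KI, so its value in KO does not show the deletion.

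Of 18 heat shock chaperones 4 were called lower and 0 higher, beside 4.62% and 2.85% over all genes. The median was -0.28 (0.11 with FPKM as deposited). Dnaja1 had 162 and 68.7, Hsph1 52.6 and 22.2, Dnajb4 20.1 and 7.67, and Bag3, a co-chaperone, 9.98 and 4.43, while Hspa8, the most abundant, had 682 and 651. All 4 calls missed the rule with FPKM as deposited. The heat shock element, read as GAA, any 2 bases, TTC, any 2 bases and GAA on either strand, was found in 5 of 21 promoters of the list (23.8%) against 0.603% of all. Of the called genes it was found in Hsph1 alone, and it was also found in Chordc1, Hspd1 and Hspe1, which were not called. For the immediate early genes, TGACTCA (the AP-1 site) was found in 0 of 24 promoters and in 5.20% of all, and GCGTGGGCG (the EGR site) in 0 of 24 and in 0.612% of all.

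The genes of the mitochondrial genome, which encode subunits of the respiratory chain, were lower at 6 weeks almost throughout. Of 13 genes 12 were called lower and 0 higher, beside 4.62% and 2.85% over all genes. The median was -1.49 (8 lower and -1.10 with FPKM as deposited). The summed level of these genes was 38116 scaled FPKM at 21 days and 13800.4 at 6 weeks. mt-Co1, a subunit of complex IV and the most abundant, had 12875 (12343 and 13407) and 4588 (4394 and 4781), mt-Nd2 3416 and 862, and mt-Nd5 2179 and 657. The largest differences were in the shortest genes, mt-Atp8 at 1179 and 56.8 and mt-Nd4l at 293 and 28.6, which overlap their neighbours mt-Atp6 and mt-Nd4, so their values are uncertain. The summed level was 12291 in KO and 26947 and 16633 in KI. WT at 6 weeks and KO were the low libraries, and WT at 21 days the highest.

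Nuclear genes of the same respiratory chain did not share this pattern. Of 31 nuclear oxidative phosphorylation genes 0 were called in either direction, beside 7.47% over all genes, and 28 lay above 0. The median of these genes was 0.26 (4 called higher and a median of 0.65 with FPKM as deposited). Their transcripts are short (median 623 nt), and all protein-coding genes of 500 to 1000 nt had a median of 0.22. Ndufv2, a core subunit of complex I, had 28.0 and 56.2, and Uqcrq, of complex III, 46.5 and 92.3, both just under 2-fold, with 67.7 and 105 in KO and 24.7 to 45.5 in KI. The 49 cytoplasmic ribosomal protein genes had a median of 0.02, with 2 called higher (4.08%) and 0 lower, beside 2.85% and 4.62% over all genes. Those were Rps20 at 465 and 1105 and Rps27 at 864 and 1838, while Rpl17 had 849 and 439. Ribosomal protein genes have many pseudogene copies that can share their reads. Cell division genes had 0 of 36 called and glycolysis 0 of 17, beside 7.47% over all genes. For cell division the median was 0.22 (4 higher and 0.55 with FPKM as deposited), with Birc5 at 13.6 and 22.3 and Pcna at 112 and 125. In glycolysis Ldha had 217 and 260. In cholesterol synthesis 1 of 16 was called higher and 0 lower, beside 2.85% and 4.62% over all genes. It was Sc4mol (now Msmo1), a sterol oxidase, at 5.87 and 15.1.

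Some genes that rank high by size had no list. Ctse, an endosomal aspartic protease, had 5.63 at 21 days and 63.6 at 6 weeks, and 83.5 in KO against 7.82 and 6.11 in KI. Pdlim4, a cytoskeletal adaptor, had 0.674 and 11.1, with 13.7 in KO and 4.32 and 1.09 in KI. Both were thus high in WT at 6 weeks and KO together. Plac8 had 5.10 and 30.7, but 53.6 in KO and 56.0 and 4.07 in KI, so the KI pair spans it. Lsm5, an RNA-binding subunit of the splicing machinery, had 28.8 and 1.41, with 18.0 in KO and 21.3 and 30.7 in KI, and was low in WT at 6 weeks alone. The short entries Gm11273 and PPP4R2 (390 and 285 nt) had 9.08 and 8.86 at 6 weeks and 17.0 and 9.48 in KO and were near 0 in the other 3, and the values of such short entries are uncertain. D13ERTD608E had 0 and 10.4, and Rpl36a-ps1 38.8 and 4.56, Gm10395 5.30 and 0, and Gm17352 6.07 and 0.160.

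Transcript length moved with the differences. Among protein-coding genes the median difference was 0.22 for transcripts of 500 to 1000 nt (1836 genes), 0.03 for 2000 to 3000 nt and -0.42 above 6000 nt, where 0 of 488 genes were called higher and 50 lower. Genes called higher had a median length of 1318 nt and a GC content of 52.6%, genes called lower 2748 nt and 46.1%, and all protein-coding genes 2073 nt and 50.8%. For the mean of KI minus KO the medians ran the other way, from -0.24 at 500 to 1000 nt to 0.55 above 6000 nt, while between the KI libraries they were 0.04 and -0.01. Zbtb10 (7414 nt), Fosl2 (6537 nt), Nr4a3 (5394 nt) and Nr4a2 (3422 nt) are above the upper quartile of protein-coding genes (3268 nt). Tyrobp (581 nt) and H2-Aa (977 nt) are below the lower quartile (1190 nt), and Siglech (1795 nt) and Bhlhe40 (1795 nt) lie between. Whether length carries any one of these differences was not tested.

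**Figure D4:**
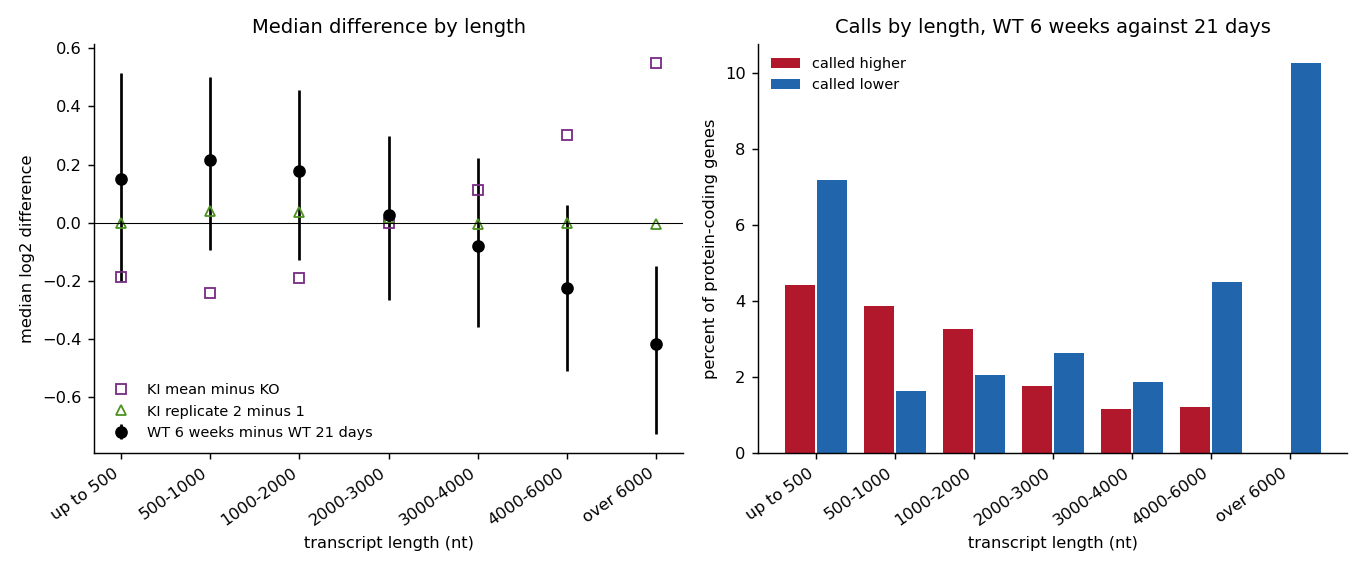
Left, the median log2 difference of protein-coding genes by transcript length (nt) for WT 6 weeks minus 21 days (circles, bars from the lower to the upper quartile), the mean of KI minus KO (squares) and KI replicate 2 minus 1 (triangles). Right, the percent of protein-coding genes called higher or lower in the WT pair. The WT medians fall from 0.22 at 500 to 1000 nt to -0.42 above 6000 nt, and those of KI minus KO rise from -0.24 to 0.55.

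A pair with the same ages and no library in common with the WT pair is KI at 6 weeks against KO at 21 days, in which age and genotype cannot be told apart. There both KI libraries were past 2-fold above KO for 289 of 10224 protein-coding genes (2.83%) and below it for 164 (1.60%). Of the 243 genes called higher in WT at 6 weeks, 0 were past 2-fold in the same direction in both KI libraries and 39 (16.05%) were past 2-fold in the opposite direction. Of the 290 called lower, 1 was past 2-fold in the same direction, Ebi3, and 120 (41.4%) in the opposite one. By sign alone, both KI libraries lay on the same side as the WT difference for 12 of the 243 and 5 of the 290, and on the other side for 176 and 244. Over all 10224 protein-coding genes both KI libraries lay above KO for 35.5% and below it for 39.2%. Among all genes with a WT difference above 0 the shares were 12.4% and 60.9%, and among those below 0 62.3% and 14.1%, so the opposite signs were not limited to called genes.

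Some of the called genes can be sorted by which libraries stood apart. The shapes looked for were WT at 6 weeks alone, WT at 6 weeks with KO, and WT at 21 days alone. Of the 243 higher genes 136 fit none of these, and of the 290 lower ones 196. The genes were picked by the WT pair and the shares over all genes were not taken, so the counts are description only. Of the 243 higher ones, 84 (34.6%) were past 2-fold above all 4 other libraries in WT at 6 weeks, Siglech, Tyrobp and H2-Aa among them, and 22 were past 2-fold above the other 3 in WT at 6 weeks and KO together, Ctse among them. Of the 290 lower ones 10 were low in WT at 6 weeks alone, Lsm5 among them, and 79 (27.2%) in WT at 6 weeks and KO together, Dusp4 and Nr4a3 among them. Named after their values were seen, Inpp4b, a lipid phosphatase, had 180 and 54.5 in WT, 43.9 in KO and 248 and 271 in KI, P2ry10 had 113, 32.3, 35.2, 126 and 133 in the same order, and Nfat5, the osmotic stress factor, had 29.3, 7.44, 4.59, 25.8 and 25.2. For these genes WT at 21 days lay with the KI libraries, and the libraries of low estimated depth were the low ones.

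**Figure D5:**
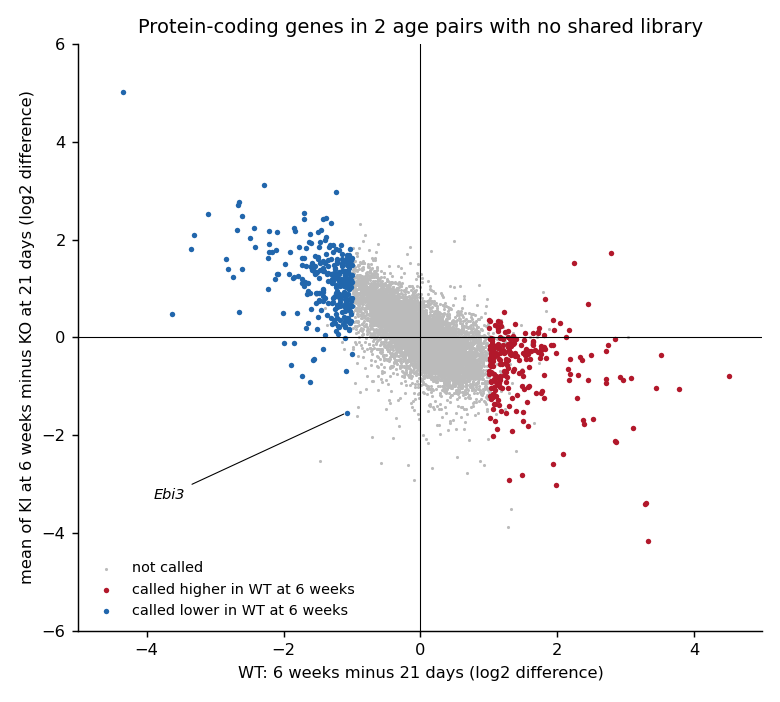
Each point is 1 protein-coding gene, with the WT difference (6 weeks minus 21 days) on the x axis and the mean of KI at 6 weeks minus KO at 21 days on the y axis, both as log2 differences. Genes called higher in WT are red and genes called lower blue. Of the 290 blue points 120 lie past 2-fold above 0 in both KI libraries, and Ebi3 is the 1 called gene past 2-fold in the same direction in both.

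The sex of the animals was checked from the same values. The Y-linked genes Eif2s3y and Ddx3y had 48.7 and 24.97 in WT at 21 days and 41.3 and 11.8 in WT at 6 weeks, and were present in all 5 libraries. Xist, the RNA of the inactive X chromosome, had 1.17 and 0.185 in the WT libraries, 0.130 and 0.154 in KI and 11.9 in KO. Both WT libraries thus carried mainly RNA of male mice by these genes. In KO, Xist stood beside Eif2s3y at 43.7 and Ddx3y at 7.04, so by these genes KO held RNA of both sexes. KO values above thus differ from WT and KI in this too.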

How the data were processed

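The members and gene lists were chosen with earlier results of these data known. Per the submitters' processing notes, the authors used CASAVA, HISAT2 2.1.0 and Cufflinks 2.2.1 on GRCm38. Not given in the sources used here: their order and settings, the annotation release and the strand. Per the file headers, the deposited values are FPKM per gene with lower and upper bounds and a status. Each library was scaled by a median-of-ratios factor (0.876 for WT at 21 days and 1.15 for WT at 6 weeks, from 9874 genes at FPKM 1 or more in all 5 libraries), and differences were taken on log2(scaled FPKM + 1) with a pseudocount of 1. Depth was estimated from the bounds, read as 2 standard errors. With 1 library per age the main comparison has no test. As an alternative, limma 3.58.1 (R 4.3.3) was fitted to the 4 group means with 1 degree of freedom left, which the KI pair gives. Tested on simulated data over 11857 genes, with the spreads of the KI pair shuffled over genes, it recovered 0 of 50 genes changed 16-fold. Gene types and lengths came from GENCODE M21 (11702 of 11857 members matched), and promoters from RefSeq (GRCm38.p6). Of the listed genes, Ighd, Iglc1, Irf8 and Ahsp were not analysed here. A further list and 1 gene of the B cell list are not reported here.

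Named genes were chosen by rule. These were the 15 protein-coding genes called higher and the 15 called lower with the largest differences, the 10 of each among genes at 20 scaled FPKM or more, the 4 largest differences and the highest member of each list, all genes of the Treg identity, plasmacytoid dendritic cell and B cell lists, and up to 5 genes each way that repeated in KI against KO. Others are said to be named after their values were seen. Python 3.11.15, numpy 2.4.6 and pandas 2.3.3 were used. Alternatives were other scalings, pseudocounts, filters and bounds.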

Additional observations from a re-analysis of the deposited data

Results flagged for a closer look

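The difference of the WT pair and that of KI at 6 weeks against KO at 21 days, where genotype differs too, ran in opposite directions for many genes, and the difference between the pairs was not tested. For 120 of the 290 protein-coding genes called lower in WT at 6 weeks, both KI libraries lay past 2-fold above KO. For 39 of the 243 called higher, both KI libraries lay past 2-fold below KO. Of the 35 named protein-coding genes of the largest differences, 27 had the WT pair on one side and both KI libraries on the other side of KO.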

How the results depend on the processing

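The 886 calls became 309 with a pseudocount of 5, 586 with FPKM of 1 or more in both libraries, 533 in protein-coding genes only, 570 with the bounds doubled, and 0 by limma on 4 group means, which had no power. There the lowest adjusted p was 0.0691, with 1076 genes at an unadjusted p under 0.05, 609 higher and 467 lower. The 338 genes called higher became 943 with FPKM as deposited, 511 with a pseudocount of 0.1, 103 with 5, 184 with FPKM of 1 or more in both, 221 with FPKM of 5 or more in either, 520 by size alone, 177 with the bounds doubled and 0 by limma. The 548 called lower became 308 with FPKM as deposited, 206 with a pseudocount of 5, 290 in protein-coding genes and 0 by limma. The 87 calls within lists became 57 with a pseudocount of 5. With FPKM as deposited the medians of 6 lists turned positive, at 0.0145 for Treg identity, 0.0144 for effector Treg, 0.17 for resting T cells, 0.19 for homing, 0.16 for immediate early genes and 0.11 for heat shock, all below the median of 0.37 over all genes. Of 86 named genes called, 11 were no longer called with FPKM as deposited, 11 with the bounds doubled, 24 with a pseudocount of 5 and 0 with a factor from the WT libraries alone, and 0 changed sign.

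Leaving out KI replicate 1 or 2 gave 0 and 5 genes past 2-fold in the same direction as the genes called higher and 74 and 53 in the opposite direction, and for the genes called lower 9 and 1 in the same and 135 and 218 in the opposite direction. With FPKM as deposited the opposite counts were 145 and 45, and 0 genes called lower repeated. No paired analysis was possible because each WT group has 1 library. Differences between animals cannot be separated from age, and low genes are limited by the 7.33 M fragments estimated for WT at 6 weeks.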
